A study of Homo sapiens with 2 samples.

Results

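The 9 genes described here encode the proximal chain of the B cell antigen receptor: the receptor's signalling chains CD79A and CD79B, the inhibitory coreceptor CD22, the Src family kinases LYN and BLK, the kinases SYK and BTK, the adaptor BLNK and the phospholipase PLCG2. They were chosen by symbol, all 9 were found in both tables among 19096 gene symbols, and all 9 belonged to the 10272 expressed genes, those with a mean of at least 1 RPKM (reads per kilobase of a transcript at equal depth). Each gene was represented by its transcript row with the highest mean RPKM. The cells were P493-6, a human B cell line immortalised by Epstein-Barr virus and labelled as B-cell lymphoma, in which tetracycline silences a c-Myc transgene. The high c-Myc group was 1 library of cells 24 h after release of the transgene, and the low c-Myc group was 1 library of cells at 0 h. Both groups carried the transgene and both received synthetic RNAs of the ERCC ExFold kit in proportion to cell number. As each group held 1 library of 1 cell line, replicate spread is unknown, the conditions could not be tested against each other, and each value describes this pair of libraries.

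The steps between low RPKM values implied about 105500000 reads in high c-Myc cells and 103000000 in low c-Myc cells. The transgene was checked through MYC itself, at an RPKM of 2358 in high c-Myc cells and 836 in low c-Myc cells, although reads of the transgene and of the endogenous gene are not separated. Of the 6 genes fixed as B cell markers, 5 were expressed, among them MS4A1 (CD20) and PAX5, and CR2 (complement receptor 2) stood at 0 in high c-Myc cells and 0.0024 RPKM in low c-Myc cells.

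When antigen binds the receptor, LYN and other Src family kinases phosphorylate the tyrosine motifs in the cytoplasmic tails of CD79A and CD79B. SYK docks there and phosphorylates the adaptor BLNK, which brings BTK and PLCG2 together at the membrane. PLCG2 then splits a membrane lipid into messengers that release calcium and activate protein kinase C, and CD22, phosphorylated by LYN, recruits the phosphatase PTPN6 (SHP-1) that damps the signal.

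RefSeq promoter windows of GRCh38.p14, from 250 bases before to 50 after an annotated start, were used for 6 of the 9 genes, in 9 windows. They were matched by symbol, and windows of SYK overlap in part, so the 9 are not all separate sequences. No window of CD79B, LYN or BLK was used, so the members with the lowest and the highest ratio, LYN and BLK, were left out. Shown here are the 250 bases before the start of CD79A, the member with the highest RPKM, and of CD22 and BTK. Among the 6 genes with a window used here, CD22 had the lowest and BTK the highest ratio of high over low c-Myc. The stretches lie at chr19:41877029-41877278 on the plus strand for CD79A, chr19:35328937-35329186 on the plus strand for CD22 and chrX:101390797-101391046 on the minus strand for BTK, and are written 5′ to 3′ along the gene. Capitals mark matches on either strand to AGGAAG or GAGGAA, which hold the GGAA core bound by ETS factors such as PU.1, and to GGGCGG, the GC box.
CD79A: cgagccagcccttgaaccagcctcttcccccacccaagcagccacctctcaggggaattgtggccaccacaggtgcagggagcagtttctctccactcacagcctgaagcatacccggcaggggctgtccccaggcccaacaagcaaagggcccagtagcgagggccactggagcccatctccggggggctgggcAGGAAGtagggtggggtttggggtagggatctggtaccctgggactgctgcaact
CD22: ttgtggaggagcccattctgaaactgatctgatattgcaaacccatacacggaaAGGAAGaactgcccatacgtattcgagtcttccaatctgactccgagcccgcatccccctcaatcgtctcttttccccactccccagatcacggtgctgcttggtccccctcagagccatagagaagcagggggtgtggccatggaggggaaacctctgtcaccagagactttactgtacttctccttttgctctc
BTK: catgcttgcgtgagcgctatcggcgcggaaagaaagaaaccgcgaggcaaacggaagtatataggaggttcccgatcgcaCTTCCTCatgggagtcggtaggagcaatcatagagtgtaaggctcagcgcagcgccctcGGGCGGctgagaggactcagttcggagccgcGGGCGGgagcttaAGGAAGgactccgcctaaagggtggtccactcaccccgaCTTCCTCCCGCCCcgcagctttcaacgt

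The motifs were chosen with the ratios known and the windows in view, so their counts are a description. AGGAAG occurred in 8 of the 9 windows and in at least 1 window of each of the 6 genes, against 33.6% of all 35116 windows of the same length in the RefSeq table. GAGGAA, which overlaps AGGAAG wherever the letters run GAGGAAG, occurred in 5 of the 9 windows and in 27.9% of all windows. GGGCGG occurred in 4 of the 9 windows and in 45.0% of all windows. The windows with it belonged to BTK, PLCG2 and SYK, though other SYK windows held none. CACGTG, the E-box bound by MYC with its partner MAX, occurred in none of the 9 windows and in 7.26% of all windows. The octamer ATTTGCAT, bound by OCT factors in B cells, likewise occurred in none of the 9 and in 1.77% of all windows. Within the stretches shown, CD79A and CD22 each held 1 AGGAAG and no GC box, while BTK held 3 AGGAAG, 2 GAGGAA and 3 GGGCGG. BTK has another annotated start in the table, whose window is not shown and held fewer matches, 2 AGGAAG, 1 GAGGAA and 1 GGGCGG.

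On the deposited RPKM scale all 9 genes were lower in high c-Myc cells than in low c-Myc cells. LYN, CD22, CD79A and SYK were at least 2-fold lower, the other 5 lay between, and none was 2-fold higher. By comparison, 9.74% of all expressed genes were at least 2-fold lower and 24.9% at least 2-fold higher. On the log2(RPKM + 0.5) scale the ratio of high over low c-Myc had a median of -0.99 over the 9 genes and 0.22 over all expressed genes, with members from -1.59 for LYN to -0.26 for BLK. The summed RPKM of the 9 genes was 1216 in high c-Myc cells and 2712 in low c-Myc cells. Each value rested on about 4908 to 169892 reads, so that the widest 95% interval of a log2 ratio spanned 0.10. These exact binomial intervals, taken on ratios without the pseudocount, describe counting error alone: PCR duplicates repeat a molecule, and cultures may vary further. The read number of CD79A is understated, because the transcript model paired with its row is short, so its interval is wider than its reads would give. In a bulk sample, fewer cells with a transcript and less of it per cell cannot be told apart.

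**Figure D1:**
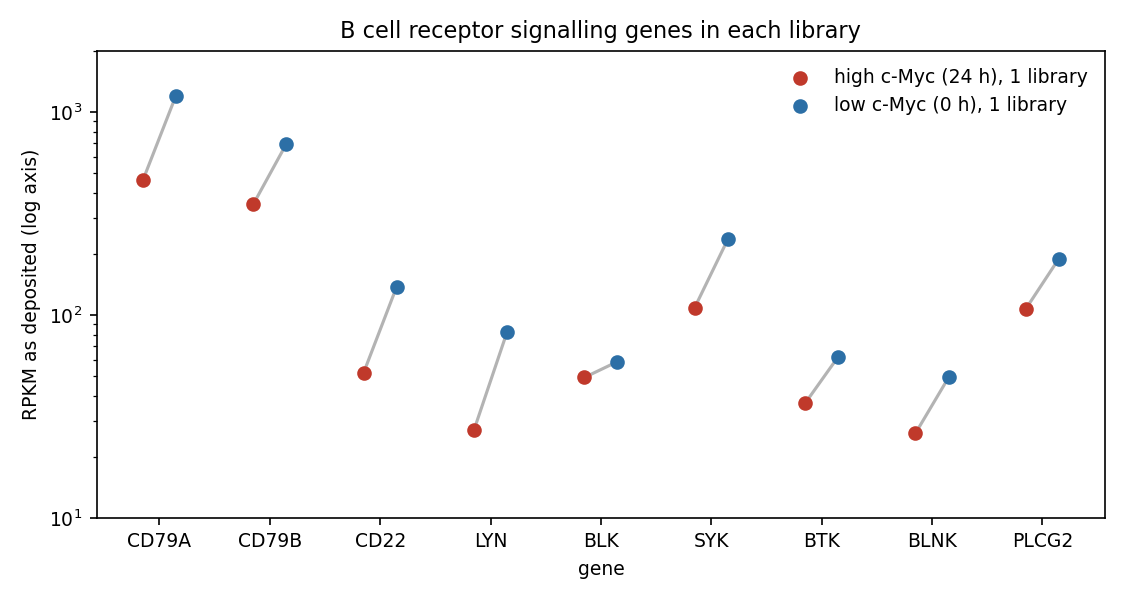
RPKM as deposited, on a log axis, of the 9 receptor signalling genes in high c-Myc cells (red, 24 h) and the low c-Myc library (blue, 0 h), 1 library each, with grey lines joining the values of a gene. Every red point sits below its blue partner; the drop is smallest for BLK (49.1 and 58.8) and steepest for LYN (27.1 and 82.3).

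The 2 signalling chains were the most abundant members in both libraries. CD79A (NM_021601) stood at 460 RPKM (rank 48 among expressed genes) in high c-Myc cells and at 1202 RPKM (rank 8) in low c-Myc cells. That was a log2 ratio of -1.39 (95% counting interval -1.41 to -1.37). Its other row, NM_001783, gave 439 and 1113 RPKM in high and low c-Myc cells and a log2 ratio of -1.34. CD79B (NM_000626) stood at 350 RPKM in high c-Myc cells, rank 79, and 695 RPKM in low c-Myc cells, rank 22. Its log2 ratio was -0.99 (-1.01 to -0.97), just short of 2-fold.

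CD79A thus exceeded CD79B by 1.31-fold in high c-Myc cells and by 1.73-fold in low c-Myc cells, although both chains enter the receptor as a heterodimer. Of the 3 CD79B rows, NM_001039933 gave the same log2 ratio of -0.99 and NM_021602 gave -0.76, from 370 RPKM in high c-Myc cells and 628 RPKM in low c-Myc cells. NM_021602 was the highest of the 3 CD79B rows in high c-Myc cells and the lowest in low c-Myc cells. Rows of one gene may share reads and are not independent measurements. Of the 6 members with several rows, the 5 others varied by at most 0.045 in log2 ratio between rows.

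CD22, a sialic acid-binding receptor that sets the threshold of receptor signalling, was 2.66-fold lower in high c-Myc cells. It stood at 51.8 RPKM there and at 137.6 RPKM in low c-Myc cells, a log2 ratio of -1.40 (-1.43 to -1.38). Its 4 rows lay between -1.40 and -1.38. PTPN6, the phosphatase that CD22 recruits, was named for that role after its values were seen, and had 262 RPKM in high c-Myc cells and 563 RPKM in low c-Myc cells, a log2 ratio of -1.10.

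LYN, the Src family kinase that acts both in starting the signal and in its restraint through CD22, had the lowest ratio of the 9 genes. It stood at 27.1 RPKM in high c-Myc cells and at 82.3 RPKM in low c-Myc cells, a log2 ratio of -1.59 (-1.63 to -1.58). BLK, a Src family kinase largely restricted to B cells, had the highest, with 49.1 RPKM in high c-Myc cells and 58.8 RPKM in low c-Myc cells and a log2 ratio of -0.26 (-0.29 to -0.23). The order of the pair therefore differed between libraries, with LYN at 0.55 times BLK in high c-Myc cells and 1.40 times BLK in low c-Myc cells.

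Across 7 Src family kinase genes the summed RPKM was 181 in high c-Myc cells and 266 in low c-Myc cells. LYN made up 14.9% of that sum in high c-Myc cells and 30.9% in low c-Myc cells, and BLK 27.1% and 22.1%. FGR was the highest of the 7 in both libraries, at 64.6 RPKM in high c-Myc cells and 90.2 RPKM in low c-Myc cells. SRC took 12.5% in high c-Myc cells and 5.10% in low c-Myc cells. LCK and SRC were the kinases of the 7 with a higher RPKM in high c-Myc cells.

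**Figure D2:**
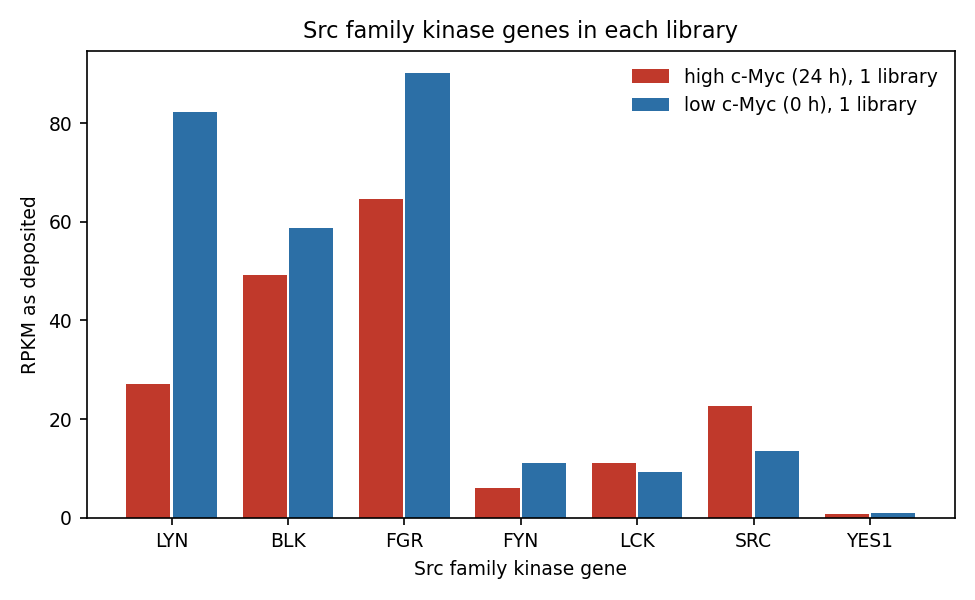
RPKM as deposited of 7 Src family kinase genes in high c-Myc cells (red, 24 h) and the low c-Myc library (blue, 0 h), 1 library each, on a linear axis from 0. LYN stands below BLK in red (27.1 against 49.1) and above it in blue (82.3 against 58.8).

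Of the kinases and the adaptor downstream, SYK alone passed 2-fold. SYK, the tyrosine kinase that binds the phosphorylated CD79 tails, stood at 108.6 RPKM in high c-Myc cells and at 235 RPKM in low c-Myc cells, a log2 ratio of -1.11 (-1.13 to -1.10). Its 4 rows lay between -1.12 and -1.11. BTK, the Tec family kinase that activates PLCG2, stood at 36.7 RPKM in high c-Myc cells and at 62.2 RPKM in low c-Myc cells, a log2 ratio of -0.75 (-0.80 to -0.73).

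BLNK, the scaffold that joins SYK to its substrates, had the lowest RPKM of the 9 in both libraries. It stood at 26.1 RPKM in high c-Myc cells and at 49.1 RPKM in low c-Myc cells, a log2 ratio of -0.90 (-0.96 to -0.86). PLCG2, the phospholipase at the end of the chain, stood at 107.0 RPKM in high c-Myc cells and at 189 RPKM in low c-Myc cells, a log2 ratio of -0.82 (-0.84 to -0.81). LYN, CD22 and CD79A thus had log2 ratios between -1.59 and -1.39, SYK, CD79B, BLNK, PLCG2 and BTK between -1.11 and -0.75, and BLK lay above them.

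By RPKM, which is per length, the order in high c-Myc cells was CD79A, CD79B, SYK, PLCG2, CD22, BLK, BTK, LYN and BLNK. In low c-Myc cells it was CD79A, CD79B, SYK, PLCG2, CD22, LYN, BTK, BLK and BLNK, so that only LYN and BLK held other places. In high c-Myc cells the 95% Poisson intervals of LYN (26.6 to 27.5 RPKM) and BLNK (25.4 to 26.8 RPKM) overlapped. SYK and PLCG2 were also close there, and took each other's place when a gene was given the mean over its transcript rows. The lowest rank of any member among the expressed genes was 2600 in high c-Myc cells and 835 in low c-Myc cells, both for BLNK.

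Expressed genes near a member, by distance in log2(RPKM + 0.5) over the 2 libraries, are given here for 5 members. Among the 2 genes nearest to LYN was CD180, a Toll-like receptor relative of B cells, at a distance of 0.11. Nearest to CD79A was CD37, a tetraspanin of B cells, at 0.28, and nearest to CD79B was the chemokine gene CCL22 at 0.018. TCL1A, a lymphoid kinase coactivator, lay nearest to PLCG2 at 0.039, and OAS1, an interferon-induced antiviral enzyme, nearest to CD22 at 0.039. With 2 libraries such a distance only says that level and ratio were alike.

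Per cell the direction was the opposite, as it was for nearly all expressed genes. The 46 synthetic RNAs that reached 1 RPKM in each library had a median log2 ratio of -2.56, with quartiles of -2.84 and -2.17. That median was subtracted from each gene's ratio, and the values per cell below do not carry the spread of the synthetic RNAs. On that scale 8 of the 9 genes were at least 2-fold higher in high c-Myc cells, a share to be read against 97.1% of all expressed genes at least 2-fold higher and 0.0876% at least 2-fold lower. The median log2 ratio per cell was 1.57 over the 9 genes and 2.78 over all expressed genes, and each of the 9 lay below that median. LYN was the member short of 2-fold, at 0.97 (1.96-fold higher), and its other row gave 0.999. With the summed RPKM of the synthetic RNAs as the scale, LYN was at 1.003 and all 9 passed 2-fold. The share of all expressed genes past 2-fold was not counted on that scale. CD79A was 2.25-fold higher per cell, CD22 2.23-fold, SYK 2.72-fold and CD79B 2.97-fold. BLNK, PLCG2 and BTK were 3.15-fold, 3.33-fold and 3.49-fold higher, and BLK was the highest at 4.92-fold.

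The authors also deposited a column that they renormalized with the synthetic RNAs; how they did so is not stated. In that column CD79A stood at 1118 in high c-Myc cells and 494 in low c-Myc cells, LYN at 59.7 and 37.3, and BLK at 108.9 and 26.5. By these values 7 of the 9 genes were at least 2-fold higher in high c-Myc cells, all but LYN (1.60-fold) and CD22 (1.92-fold), against 92.1% of all expressed genes. Its median log2 ratio was 1.34 over the 9 genes and 2.48 over all expressed genes.

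**Figure D3:**
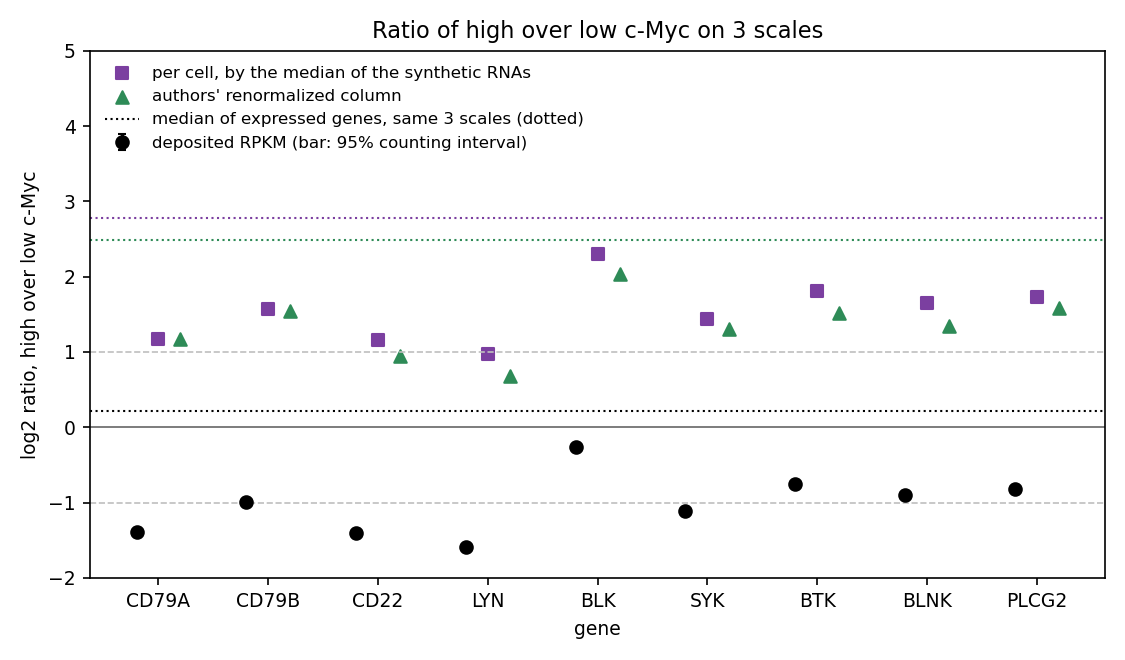
Log2 ratio of high over low c-Myc for each of the 9 genes on the deposited scale (black circles, bars 95% counting intervals), per cell by the synthetic RNAs (purple squares) and in the authors' renormalized column (green triangles), 1 library per group. All black points lie below 0 and all purple and green points above it, yet on each scale every member lies below the dotted median of expressed genes (0.22, 2.78 and 2.48).

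The count of members past 2-fold moved with the scaling. Centring on the median of expressed genes left 7 of 9 at least 2-fold lower, all but BLK and BTK, against 14.8% of all expressed genes lower and 19.8% higher. Giving both libraries an equal RPKM total over genes gave 8 of 9 against 16.0%, and quantile normalization 8 of 9 against 17.0%, BLK being the exception in both. At a threshold of 1.5-fold on the deposited scale, 8 of 9 were lower against 20% of all expressed genes.

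Ratios of expressed genes were higher at higher GC content of the transcript (Spearman's rho 0.41 over 9948 genes, which are not independent), and the members spanned 45.7% to 60.7% GC around a median of 49.98%, with 50.28% over all expressed genes. CD79A, CD79B and BLK were the GC-rich members, at 60.7%, 60.0% and 59.5%. After a correction for GC content 5 of 9 were at least 2-fold lower, against 9.13% of the 9948 genes with a GC value, and the added gene was CD79B at -1.45. The corrected log2 ratios were -1.92 for CD79A, -1.54 for CD22, -1.42 for LYN, -1.08 for SYK, -0.74 for BLNK, -0.70 for PLCG2, -0.67 for BLK and -0.62 for BTK. BLK was then no longer apart from BTK, BLNK and PLCG2, and CD79A in place of LYN had the lowest ratio.

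**Figure D4:**
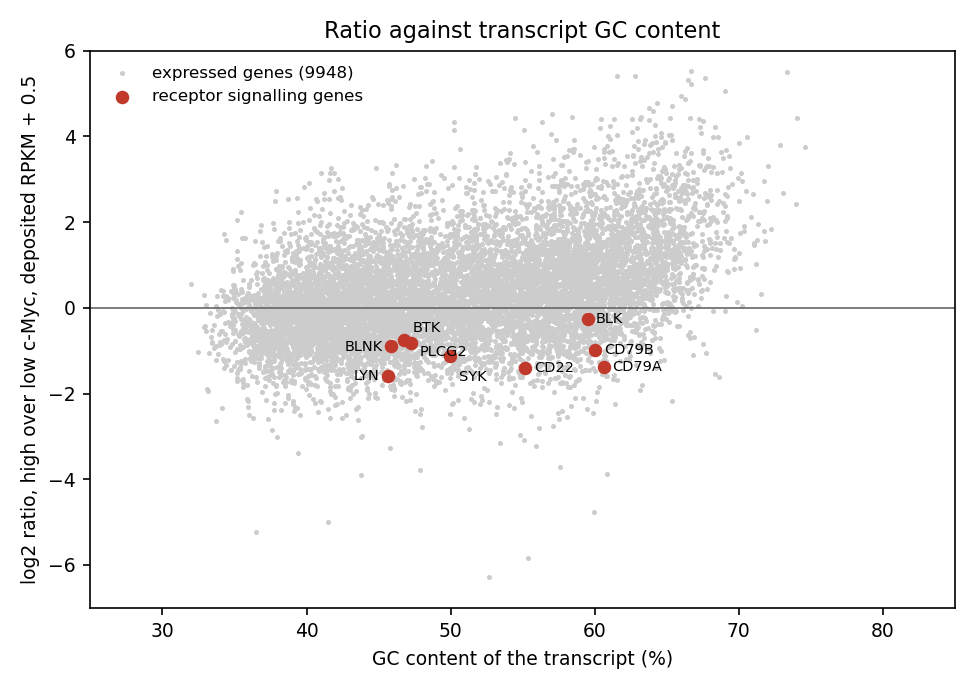
Log2 ratio of high over low c-Myc on the deposited scale (y axis) against GC content of the transcript in percent (x axis) for 9948 expressed genes (grey) and the 9 receptor signalling genes (red), 1 library per group. CD79A and CD79B (-1.39 and -0.99) lie in the lower part of the grey points near 60% GC.

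Of 119 other genes of the pathway, sorted into 9 lists, 116 were in the tables and 104 were expressed; IGHM, IGHD and IGKC were not analysed here. On the deposited scale 29 of these were at least 2-fold lower in high c-Myc cells, 8 at least 2-fold higher and 67 between, around a median log2 ratio of -0.47, where 9.74% of all expressed genes were lower and 24.9% higher. Centring on the median of expressed genes gave 43 lower and 4 higher, where 14.8% of all expressed genes were lower and 19.8% higher. List medians lay between -1.78 and -0.78 for the 4 lists nearest the receptor and between -0.44 and 0.09 for the 5 lists downstream. After the GC correction these ranges overlapped, with the Src family list at -0.62 and the adaptors at -0.66. Per cell, 91 of the 104 were at least 2-fold higher, a smaller share than the 97.1% of all expressed genes, and none was 2-fold lower.

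**Figure D5:**
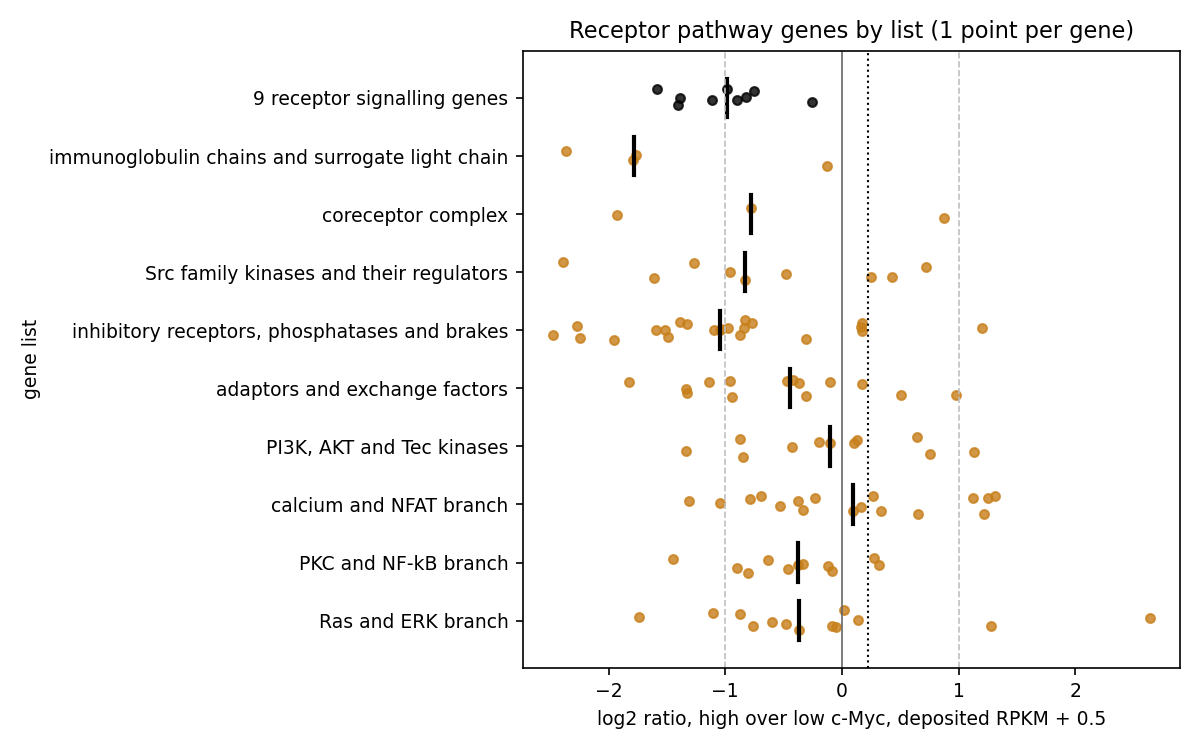
Log2 ratio of high over low c-Myc on the deposited scale for the 9 receptor signalling genes (black) and for the expressed genes of 9 pathway lists (orange, 1 point per gene), with short bars at the list medians, dashed lines at 2-fold and a dotted line at the median of all expressed genes, 0.22. Medians run from -1.78 for the immunoglobulin and surrogate light chain genes to 0.09 for the calcium and NFAT branch.

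Among the immunoglobulin and surrogate light chain genes, 3 of 4 expressed genes were 2-fold lower. VPREB1 and VPREB3, of the pre-B cell receptor and its assembly, had log2 ratios of -2.36 and -1.76, and the joining chain gene IGJ one of -1.79. IGLL5 stood at 365 RPKM in high c-Myc cells and 400 RPKM in low c-Myc cells, and may share reads with the immunoglobulin lambda locus. In the coreceptor complex, which lowers the amount of antigen needed, 1 of 3 was lower and none higher. IFITM1 had a log2 ratio of -1.93, with near-identical relatives that make it uncertain, and CD81, a tetraspanin of the complex, one of 0.87 that was 0.06 after the GC correction.

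The Src family kinases other than members, with their regulators, had 3 of 9 genes lower, none higher and a median of -0.83. PTPRC (CD45), the phosphatase that keeps Src kinases ready to act, had the lowest ratio, with 13.8 RPKM in high c-Myc cells and 74.5 RPKM in low c-Myc cells, a log2 ratio of -2.39. The phosphatase gene PTPN22 had -1.27, or -0.65 after the GC correction. At the other end CSK, the kinase that switches Src kinases off, stood at 236 RPKM in high c-Myc cells and 175 RPKM in low c-Myc cells, a log2 ratio of 0.43, or -0.03 after the GC correction. SRC and LCK had 0.73 and 0.25.

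Inhibitory receptors, phosphatases and other brakes had 12 of 22 genes lower and 1 higher, with a median of -1.04. The lowest were FCRL1 at -2.48, CD72 at -2.27 and FCRL5 at -2.25, all surface receptors of B cells, and FCRL5 stood at 28.5 RPKM in high c-Myc cells and 137.0 RPKM in low c-Myc cells. The higher gene was DOK3, an adaptor that restrains calcium signalling, at 1.20, with a ratio of -0.25 after the GC correction. PTPN11 and DOK2 both had 0.17, and DOK2 had -0.31 after the correction.

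Adaptors and exchange factors had 4 of 14 genes lower, none higher and a median of -0.44. SOS1, an exchange factor for Ras, had -1.82, and the adaptors DAPP1 and STAP1 had -1.34 and -1.32, or -1.13 and -0.80 after the GC correction. NCK2, VAV2 and SHC1 made up the upper end at 0.98, 0.50 and 0.17. Of the 11 expressed genes of PI3K, AKT and Tec kinases, 1 was lower and 1 higher. Of all expressed genes, 9.74% were lower and 24.9% higher. PIK3R1, the main regulatory subunit of PI3K, had -1.34 and PIK3R2, a second one, had 1.13, and after the GC correction neither was past 2-fold (-0.88 and 0.09). PIK3CG and PIK3CA had -0.88 and -0.85, and AKT2 and AKT1 0.75 and 0.64.

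The calcium and NFAT branch, which PLCG2 feeds, had 4 of 17 genes higher, a share near the 24.9% of all expressed genes. It had 2 lower, where 9.74% of all expressed genes were, and a median of 0.09. Centring left 2 of the 17 higher, where 19.8% of all expressed genes were. STIM1, the calcium sensor of the endoplasmic reticulum, had a log2 ratio of -1.31, with 19.6 RPKM in high c-Myc cells and 49.4 RPKM in low c-Myc cells. The channel genes ORAI2 and ORAI1 went the other way, at 1.31 and 1.25. ORAI1 stood at 54.7 RPKM in high c-Myc cells and 22.6 RPKM in low c-Myc cells. ORAI3, another channel gene, named after its values were seen, went with STIM1 at -0.38, or -0.78 after the GC correction. NFATC2, a transcription factor activated by calcium, had 1.22. After the GC correction ORAI2 (1.08) was still past 2-fold, while ORAI1 (-0.02) and NFATC2 (0.74) were not. ITPR2, an inositol trisphosphate receptor, had -1.04, or -0.73 after the correction, which is short of 2-fold, and the calcineurin subunit gene PPP3CB had -0.79.

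The protein kinase C and NF-kB branch had 1 of 11 genes lower, a share near the 9.74% of all expressed genes. None was higher, where 24.9% of all expressed genes were, and the median was -0.38. The lower gene was PRKCB, a protein kinase C isoform that acts in this receptor's signal to NF-kB, with 32.7 RPKM in high c-Myc cells and 89.8 RPKM in low c-Myc cells, a log2 ratio of -1.44. At the upper end IKBKG, CHUK and MAP3K7 had 0.32, 0.28 and -0.08, with IKBKG (-0.28) and MAP3K7 (0.41) on the other side of 0 after the GC correction. The Ras and ERK branch had 2 of 13 genes lower and 2 higher, where 9.74% of all expressed genes were lower and 24.9% higher. RASGRP1 and RASGRP3, Ras activators that respond to diacylglycerol, had -1.74 and -1.10, or -1.68 and -0.78 after the GC correction, so that RASGRP3 was no longer past 2-fold. HRAS had the highest ratio of all 9 lists, with 57.4 RPKM in high c-Myc cells and 8.78 RPKM in low c-Myc cells, which gave a log2 ratio of 2.64, or 1.46 with the GC correction. MAP2K2, a kinase that activates ERK, had 1.28, or 0.04 after the correction.

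Markers of T cells and myeloid cells were also mostly lower in high c-Myc cells, at low levels for the T cell genes. Of 8 T cell genes, 5 were expressed and 4 of these at least 2-fold lower, where 9.74% of all expressed genes were, with a summed RPKM over the list of 6.29 in high c-Myc cells and 23.4 in low c-Myc cells. CD3D was at 0 in both libraries and CD247 at 0 in high c-Myc cells, while CD3E, CD3G, LCP2, CD2 and LAT had log2 ratios of -2.14, -2.04, -1.75, -1.65 and -0.46. ZAP70, the T cell relative of SYK, stood at 0.15 RPKM in high c-Myc cells and 0.040 RPKM in low c-Myc cells. Of 6 myeloid genes the 3 expressed ones, CD68, LYZ and ITGAM, were all lower, at -2.53, -2.36 and -1.52, with a summed RPKM of 35.6 in high c-Myc cells and 150.6 in low c-Myc cells. MPO was at 0 in both libraries, and CD14 and CSF1R stayed below 0.1 RPKM in each.

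Of 5 plasma cell genes, all expressed, 1 was higher, near the 24.9% of all expressed genes, and none lower, with a summed RPKM of 54.0 in high c-Myc cells and 53.2 in low c-Myc cells. The higher gene was SDC1 (syndecan-1), at a log2 ratio of 1.97, and XBP1, TNFRSF17, IRF4 and PRDM1 had 0.43, 0.28, -0.40 and -0.76. The B cell markers had 2 of 5 expressed genes lower, where 9.74% of all expressed genes were. The lower genes were MS4A1 at -2.23 and EBF1 at -1.13 (-0.78 after the GC correction), while CD40 had -0.75 and PAX5 -0.35. The summed RPKM of the B cell markers was 420 in high c-Myc cells and 1281 in low c-Myc cells. The part of these markers in the values of the 9 genes was not tested.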

How the data were processed

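RNA of P493-6 cells was sequenced from 1 high c-Myc and 1 low c-Myc sample. Per the labels' protocols, synthetic RNAs were added by cell number, polyadenylated RNA was selected, and dUTP libraries were amplified with 15 PCR cycles. Bowtie (no version given) and hg18 come from the submitters' processing notes. The counter, its use of strand and its treatment of reads with several matches are not stated, so overlapping or near-identical genes may share reads. Per the file headers the authors deposited RPKM values and a second RPKM column renormalized to the synthetic RNAs.

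The members and gene lists were chosen with earlier results of these data known. Ratios were taken on log2(RPKM + 0.5). A gene was counted as higher or lower from a log2 ratio of 1 or -1. Genes named were all members, all expressed genes of lists with at most 6 of them, the 3 highest and 3 lowest of longer lists, expressed markers, and the 2 genes nearest to each member, of which some are given. Some genes that this rule names are not reported here. Transcript lengths and GC content came from GENCODE release 29 paired by accession, for 9948 (96.8%) of the expressed genes. Depth was the number of reads at which RPKM times length most often came within 0.05 of whole reads, for 46.2% of 2277 transcripts with up to 20 reads in high c-Myc cells and 49.3% of 3196 in low c-Myc cells. The model paired with the CD79A row is short (567 bases), so its reads are understated. GC correction subtracted a lowess curve (fraction 0.3) and restored the median ratio. Alternatives covered the pseudocount, the scaling, the transcript row, GC content, the synthetic RNAs used and the fold threshold. With 1 library per group no test was run. Python 3.11.15, numpy 2.4.6, pandas 2.3.3, scipy 1.17.1, statsmodels 0.14.6 and matplotlib 3.10.9 were used, and the procedure was tested on simulated data.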

Additional observations from a re-analysis of the deposited data

How the results depend on the processing

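All 9 members kept a negative ratio on the deposited scale under the 8 alternatives run for it, with LYN between -2.10 and -1.42 and BLK between -0.87 and -0.25. Centring, equal RPKM sums and quantile normalization lowered the ratio of every member, and the pseudocounts changed the ratios little. These alternatives therefore say little about the sign. The median log2 ratio of the 9 was -0.99 as reported, -1.21 after centring, -1.31 with equal RPKM sums, -1.46 after quantile normalization, -1.08 after the GC correction, -0.91 with the mean over transcript rows and -0.86 with each gene's lowest row. The 4 members at least 2-fold lower became 7 after centring, 8 with equal sums, 8 after quantile normalization and 8 at a 1.5-fold threshold. Per cell, the median of 1.57 was 1.51 with synthetic RNAs of at least 10 RPKM, 1.60 with their summed RPKM and 1.34 in the authors' column. Lower genes in the pathway lists numbered 29, and 43 after centring, while higher genes numbered 8, and 4 after centring. Of all expressed genes, 9.74% were lower and 24.9% higher, and 14.8% and 19.8% after centring. With the mean over transcript rows 2 members changed place in the order of the high c-Myc library. The causes were not tested. No paired analysis was possible because each group held 1 library, and for the same reason no replicate could be left out. Depth limits the members little, since the fewest reads of any member were about 4908.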
